A study of Gallus gallus with 12 samples.

Results

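The transcripts of circulating red blood cells of the adult hen were compared with those of the embryo. The adult cells were primary red blood cells of hens aged 28 to 38 weeks, and the embryonic cells were primary red blood cells taken at embryonic day 10. Each group had 3 libraries, and the genotype of both is given as wild type. The same series holds 3 libraries each of HD3, a cultured chicken erythroblast line, and of primary fibroblasts, which are used below only to place single genes. Stranded libraries of total RNA were made after ribosomal RNA had been removed. A gene entered the comparison if it was listed in the adult or in the embryonic table, which gave 1677 of the 13889 genes in any of the 4 tables. The labels do not say whether the 3 replicates came from separate animals or pools, so p-values measure only the spread between these samples, which may be technical.

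Red blood cells of birds, unlike those of mammals, keep their nucleus. As they mature the chromatin condenses, transcription falls to a low level, and messenger RNA for haemoglobin makes up much of what is left. In the embryo an early, primitive wave of red blood cells is followed by definitive cells, and embryonic globin genes give way to adult ones. Which of the listed genes are globins, or markers of leukocytes, thrombocytes or other blood cells, was not assessed here, because the genes are given by Ensembl IDs that neither the files nor the RefSeq table used here pair with names. The labelled cell types were for the same reason not checked against their markers. In these bulk samples, fewer cells of a type and less RNA per cell cannot be told apart.

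Levels are FPKM (fragments set against gene length and library size) that the authors scaled to cell number, called scaled FPKM here. Each table stops at a mean of 0.3, so a gene missing from a table is below 0.3 there on average, and below 0.9 in any single replicate, since 3 values of which 1 reached 0.9 could not average less than 0.3. It is not at 0. The libraries held 2916238 to 9541884 reads on the listed genes in adult cells and 6454390 to 17808106 in embryonic cells. At the cutoff a gene had 745, 1237 and 345 reads per kilobase of length in adult replicates 1 to 3, against 175, 520 and 469 in embryonic replicates 1 to 3. For a gene of the median length of 2193 bp, reads were thus not scarce at the cutoff in any of the 6 libraries. Such a gene below the cutoff can still have been read many times. Genes far shorter than a kilobase had correspondingly fewer reads at the cutoff, fewest in embryonic replicate 1.

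Replicates of adult cells lay further apart than those of embryonic cells. Over the 481 genes listed in both tables, the median standard deviation of log2 scaled FPKM between replicates was 0.62 in adult and 0.34 in embryonic cells. It exceeded 1 for 96 of these genes in adult cells and for 8 in embryonic cells. Adult replicate 3 stood apart, with 57 of the 481 genes (11.9%) more than 4-fold away from the mean of adult replicates 1 and 2, 27 above it and 30 below. This library also held the fewest reads on listed genes, 2916238 against 5363928 and 9541884 in adult replicates 1 and 2. The part of depth in its distance was not tested. The adult median standard deviation was 0.26 between replicates 1 and 2 alone. A median of standard deviations from 2 values tends to be smaller than one from 3, so it is not directly comparable with the values above. Spearman's rho across the 481 genes was 0.81 between adult replicates 1 and 2, and 0.54 and 0.42 between replicate 3 and these. It was 0.87 to 0.98 among the embryonic replicates. These values run across genes, which do not replicate each other, and describe the libraries only.

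In all, 804 genes were listed in adult cells and 1354 in embryonic cells. The 481 genes in both were 59.8% of the adult and 35.5% of the embryonic list. A further 323 genes were listed in adult cells only and 873 in embryonic cells only. Nearly all of the summed level of the listed genes nevertheless came from the shared genes. Their share of the summed scaled FPKM was 89.1%, 93.9% and 90.0% in adult replicates 1 to 3, against 92.2%, 89.8% and 89.9% in embryonic replicates 1 to 3. The groups overlapped, with means of 91.0% ± 2.54 in adult and 90.6% ± 1.35 in embryonic cells (SD, n = 3 each) and a two-sided exact permutation p of 0.8. The scaling to cell number cancels in the ratio, but not in the cutoff, which was set on scaled values and decides which genes are listed. Genes below the cutoff do not enter the share, and a few very high genes make up most of it. Without the 10 highest genes of each sample it was 73.8% ± 1.10 in adult and 65.5% ± 1.85 in embryonic cells (SD, n = 3 each).

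**Figure D1:**
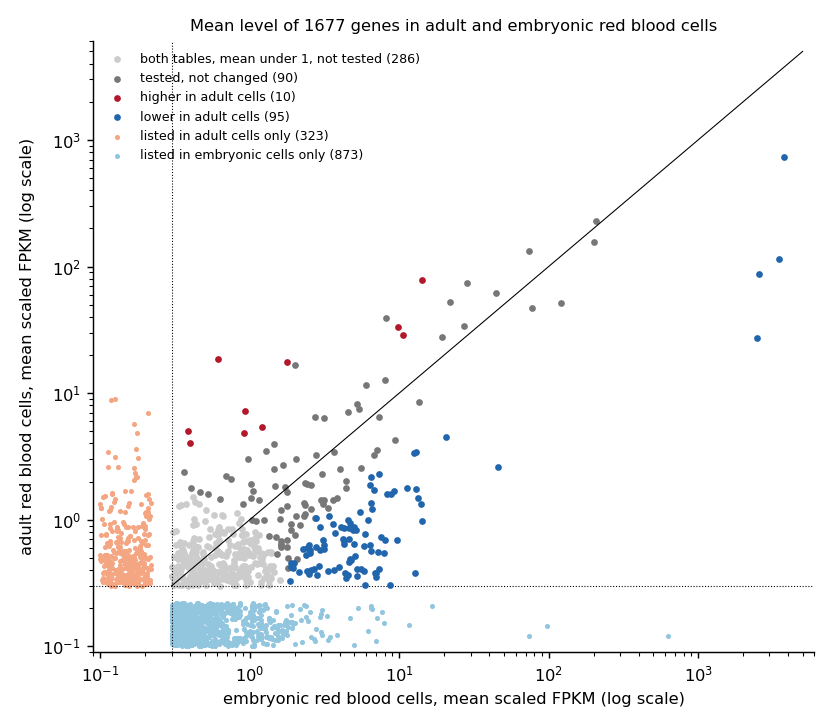
Each point is 1 of the 1677 genes, with its mean scaled FPKM over 3 adult libraries on the vertical axis and over 3 embryonic libraries on the horizontal axis, both on log scales. Dotted lines mark the cutoff of 0.3, the diagonal marks equal levels, and genes listed in 1 table only are drawn in the band below the other table's cutoff at an arbitrary height or width. Most of the 195 tested genes lie below the diagonal, and 4 genes stand above 2000 in embryonic cells.

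Genes high in one kind of cell were mostly also listed in the other. Of the 10 genes with the highest adult means, 10 were listed in embryonic cells, and of the 10 with the highest embryonic means, 8 were listed in adult cells. The highest 20 of each shared 14 genes (70.0%), the highest 50 shared 25 (50%) and the highest 100 shared 43 (43.0%). Over the 481 genes in both tables, Spearman's rho between the adult and embryonic means was 0.46, given as a description across genes. Most genes listed in a single table were close to its cutoff. A mean under 0.6 was found for 221 of the 323 genes listed in adult cells only (68.4%) and for 597 of the 873 listed in embryonic cells only (68.4%). Of the 481 shared genes, 265 had an adult mean under 0.6 (55.1%) and 154 an embryonic mean under 0.6 (32.0%). In adult cells, levels near the cutoff were thus common among shared genes too.

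Embryonic cells devoted most of their reads to very few genes, and adult cells spread them over more. The number of genes needed to reach 50% of the reads on listed genes was 50, 24 and 15 in adult replicates 1 to 3, against 3, 4 and 3 in embryonic replicates 1 to 3. The mean was 29.7 ± 18.2 in adult and 3.33 ± 0.577 in embryonic cells (SD, n = 3 each). The groups did not overlap, at a two-sided exact permutation p of 0.1, the smallest that 3 samples against 3 allow, and an adjusted p of 0.125 over the 5 measures tested in this way. The embryonic sets comprised 4 genes in all, each also listed in adult cells. Together these 4 took 15.5%, 27.9% and 7.61% of the reads in adult replicates 1 to 3, against 67.9%, 58.5% and 59.6% in embryonic replicates 1 to 3. The 4 were chosen on the embryonic values, so the difference is a description. The adult sets comprised 53 genes, of which 40 were listed in embryonic cells, and 9 genes were in the sets of all 3 adult replicates. Those 9 took 30.8% ± 5.57 of the adult reads (SD, n = 3), and the 7 of them listed in the embryo took 50.1% ± 7.20 of the embryonic reads (SD, n = 3).

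**Figure D2:**
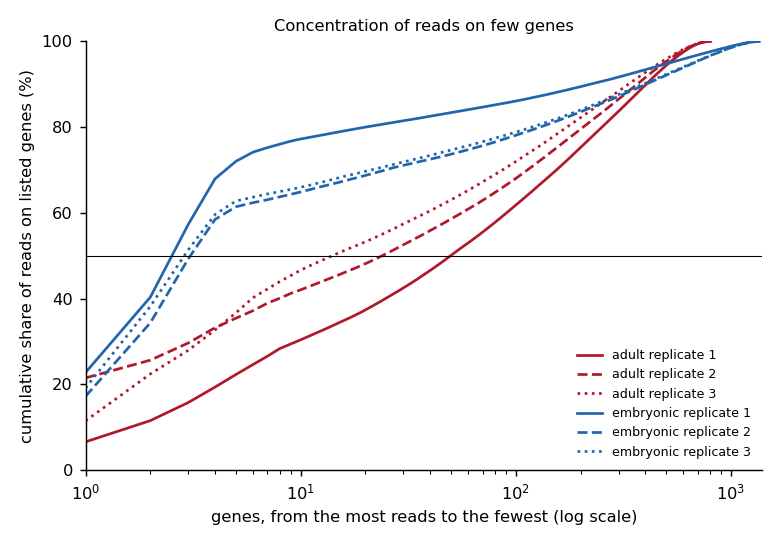
The cumulative share of reads on listed genes (%) is plotted against the number of genes, ordered from the most to the fewest reads on a log scale, with a line for each of the 3 adult and 3 embryonic libraries. The horizontal line marks 50%, which the adult libraries reach at 50, 24 and 15 genes and the embryonic libraries at 3, 4 and 3 genes.

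On the authors' scale per cell most shared genes were lower in adult cells. The summed level of the 481 genes was 1833, 3097 and 2587 in adult replicates 1 to 3, against 16967, 12640 and 12616 in embryonic replicates 1 to 3, a ratio of means of 0.178. The groups were separate (two-sided exact permutation p = 0.1, adjusted p = 0.125). A typical gene differed far less than the sum. The median level of the 481 genes was 0.632, 0.571 and 0.427 in the adult replicates, against 0.741, 1.03 and 1.02 in the embryonic replicates, again without overlap and with the same p-values. The adult mean was above the embryonic mean for 151 of the 481 genes (31.4%), and the ratio of means had a median of 0.673 with quartiles of 0.367 and 1.15. All adult replicates were above all embryonic replicates for 38 genes (7.90%) and below them for 205 (42.6%).

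For the test across genes, log2(scaled FPKM + 1) was fitted with limma over the 6 samples for the 195 shared genes with a mean of at least 1. Changed means here a p under 0.05 after Benjamini-Hochberg adjustment together with a log2 fold change of 1 or more in either direction. By this rule 105 genes changed (53.8% of those tested), 10 higher (5.13%) and 95 lower (48.7%) in adult cells. The median log2 fold change of the 195 genes was -1.02. Without the filter, the number of changed genes over all 481 genes was 105 (21.8%), and the median was -0.24. Adding 1 before the logarithm shrinks the change of low genes, and with 0.1 in its place 139 of the 195 genes changed. Genes entered the test mainly through the embryo, since 181 of the 195 had an embryonic mean of at least 1 and 106 an adult mean of at least 1. Of the 95 lower genes, 71 had an adult mean under 1. The number of higher genes was 19 without adult replicate 2, 5 without embryonic replicate 2 and 6 without embryonic replicate 3.

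**Figure D3:**
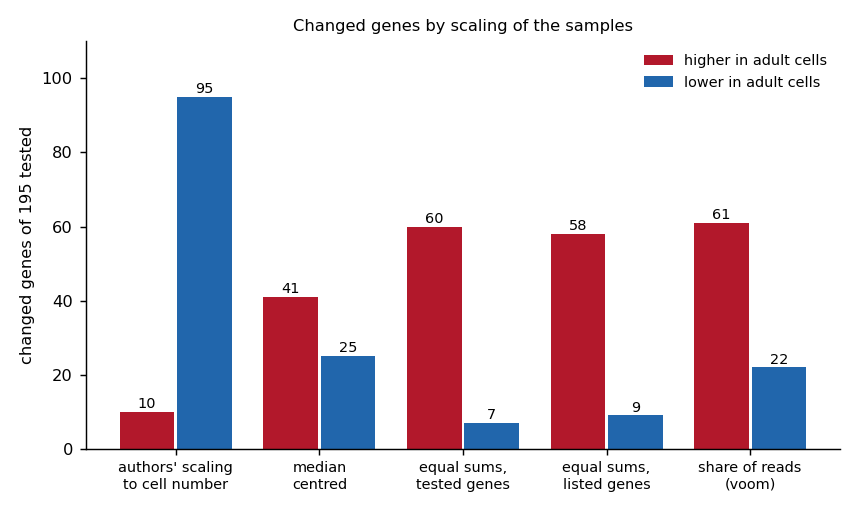
Bars give the number of the 195 tested genes that changed, higher (left bar of each pair) or lower (right bar) in adult cells, under 5 ways of scaling the 6 samples. The authors' scaling to cell number gives 10 higher and 95 lower genes, and the 4 relative scalings give 41 to 61 higher and 7 to 25 lower ones.

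The balance of higher and lower genes rested on the scaling, as the plot of changed genes by scaling shows. When samples were centred on the median gene, 41 genes were higher (21.0%) and 25 lower (12.8%) in adult cells, and the median log2 fold change moved to 0.15. With equal sums over the tested genes 60 were higher (30.8%) and 7 lower (3.59%), and with equal sums over all listed genes 58 were higher (29.7%) and 9 lower (4.62%). With limma voom on recovered reads, set against the reads on listed genes, 61 were higher (31.3%) and 22 lower (11.3%). The last 3 scalings put the median log2 fold change at 0.46 to 0.51. They are relative to the sum over the tested or the listed genes, not to all RNA of the cell, and the lists differ between the groups. The few genes that dominate the embryonic libraries enter every such sum. None of the 95 genes lower per cell was called higher under another scaling, and 97 of the 195 genes had the same sign under all 5, 42 positive and 55 negative.

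Calls that held under all 5 scalings were few. The 10 genes higher per cell (5.13% of the 195) were also called higher under the other 4 scalings. Each of those scalings moved the tested genes upward in adult cells on the whole, so this says little about the higher genes. On the lower side, 7 genes (3.59%) were called under all 5. These 17 genes were chosen on this contrast, so what follows describes them. The 10 higher genes took 5.85%, 3.69% and 4.23% of the reads in adult replicates 1 to 3, against 0.199%, 0.181% and 0.168% in embryonic replicates 1 to 3. Recovered lengths were under 200 bp for 6 of these 10, against 26 of the 195 tested genes. Each of the 6 had its highest scaled FPKM in adult replicate 3. The 7 lower genes took 9.03%, 6.48% and 4.12% of the reads in adult replicates 1 to 3, against 51.3%, 49.8% and 51.8% in embryonic replicates 1 to 3. About 50% of the embryonic reads on listed genes thus lay in these 7 genes. The 7 lower genes had log2 fold changes per cell of -6.57 to -2.54, and the 10 higher genes of 1.35 to 3.52. Among the 7 were the genes ranked 2, 3 and 4 by embryonic mean, which ranked 5, 6 and 18 in adult cells. They took 2.98%, 2.82% and 0.662% of the adult reads, against 19.7%, 18.0% and 12.9% of the embryonic reads, as means of 3 libraries. The rest of the 7 took only 0.0659% to 0.212% of the embryonic reads each. The counts depended on single libraries. Without adult replicate 2 they were 19 higher and 3 lower, without adult replicate 3 they were 13 and 5, and without embryonic replicates 2 and 3 they were 5 and 2, and 6 and 2. Without adult replicate 1 or embryonic replicate 1 they were 9 and 10, and 10 and 10.

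Single genes show the range of these differences. The IDs of 2 higher and 2 lower genes are given, 1 of each from the tested genes and 1 of each from the genes listed in a single table. ENSGALG00000011715, with a recovered length of 2324 bp, had the largest increase among changed genes without overlap. Its scaled FPKM was 27.2, 17.5 and 11.0 in adult replicates 1 to 3, against 0.528, 0.543 and 0.759 in embryonic replicates 1 to 3. All 3 adult values were above all 3 embryonic values, and the adult mean was 30.4-fold higher. It rested on 157093, 167341 and 29430 reads in the adult libraries and on 715, 2189 and 2760 reads in the embryonic libraries. It ranked 13, 16 and 26 among the 804 genes of the adult replicates, and 578, 764 and 519 among the 1354 genes of the embryonic replicates. The log2 fold change per cell was 3.52 ± 0.35 (SE) at a limma adjusted p of 8.84e-05. With 0.1 in place of 1 added before the logarithm it was 4.63. By voom on reads it was 7.04 ± 0.50 (SE) at an adjusted p of 1.81e-05. Voom uses neither the cell-number factor nor the 1 added to levels, and the part of each in the difference was not tested.

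ENSGALG00000031597, with a recovered length of 546 bp, had the largest decrease. Its scaled FPKM was 42.1, 25.8 and 14.3 in adult replicates 1 to 3, against 2167, 2804 and 2488 in embryonic replicates 1 to 3. The lowest embryonic value was far above the highest adult value, and the embryonic mean was 90.6-fold higher. The gene still ranked 9, 13 and 22 in the adult replicates, against 4, 3 and 4 in the embryonic replicates, so it was among the highest genes of both. The log2 fold change per cell was -6.57 ± 0.54 (SE) at a limma adjusted p of 5.92e-05, and by voom on reads it was -4.56 ± 0.55 (SE) at an adjusted p of 2.38e-04. In HD3 erythroblasts the same gene was at 12.8, 30.9 and 36.1 and in fibroblasts at 58.6, 41.8 and 39.5, so embryonic red blood cells stood above the other 3 cell types in every sample.

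**Figure D4:**
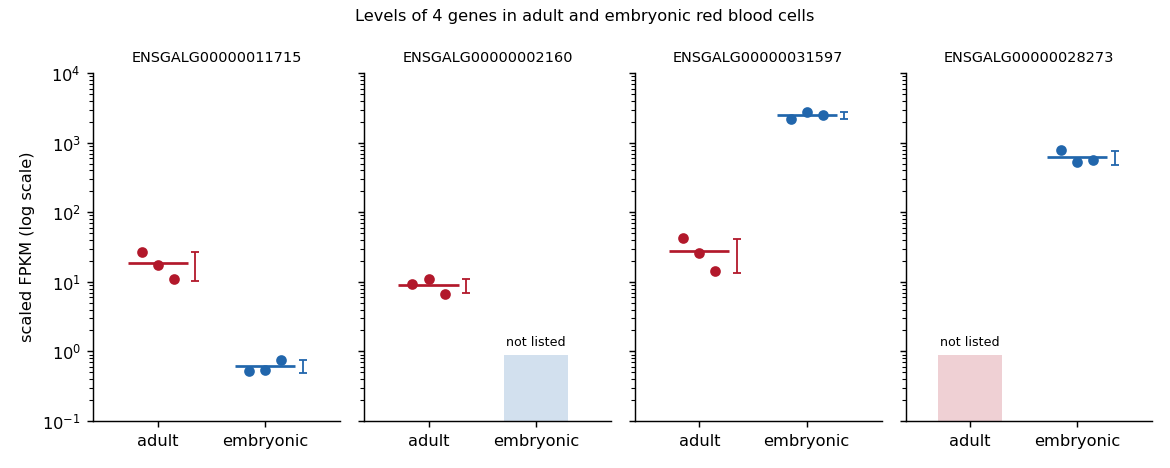
Points are the scaled FPKM (log scale) of each of 3 adult and 3 embryonic libraries for 4 genes, horizontal lines are means, and error bars beside them are the SD. A shaded block marks a cell type whose table does not list the gene, where any single value is below 0.9. ENSGALG00000011715 and ENSGALG00000002160 are higher in adult cells, ENSGALG00000031597 and ENSGALG00000028273 in embryonic cells.

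Among genes missing from the adult table, 1 stood out by its level. ENSGALG00000028273, with a recovered length of 576 bp, was not listed in adult cells, against 785, 526 and 562 scaled FPKM in embryonic replicates 1 to 3. It ranked 5 in each embryonic library and took 3.39% ± 0.607 of the reads there (SD, n = 3). With the adult mean below 0.3, the mean was at least 2080-fold lower in adult than in embryonic cells, and the lowest embryonic value was at least 584-fold above any single adult value the table allows. As a share of the summed scaled FPKM, its lowest embryonic value was at least 85.3-fold above any single adult share the cutoff allows. The cell-number factor cancels in a share, but not in the cutoff. The gene was low in both cultured cell types, at 1.68, 1.89 and 1.93 in HD3 erythroblasts and 10.3, 7.88 and 7.61 in fibroblasts.

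The counterpart among genes missing from the embryonic table was much lower. ENSGALG00000002160, with a recovered length of 1729 bp, was at 9.43, 10.9 and 6.69 scaled FPKM in adult replicates 1 to 3 and was not listed in embryonic cells. It ranked 22, 19 and 34 in the adult libraries. Its adult mean of 9.01 ± 2.15 (SD, n = 3) was at least 30.0-fold above the embryonic cutoff, and its lowest adult value was at least 7.43-fold above any single embryonic value the table allows. As a share of the summed level, its lowest adult value was at least 36.3-fold above any single embryonic share the cutoff allows. HD3 erythroblasts had 17.4, 26.0 and 32.7 and fibroblasts 42.5, 25.9 and 44.1, all above the adult red blood cells on the scale per cell. By share of the reads on listed genes the order was reversed. The mean share was 0.676% in adult cells, 0.0256% in HD3 erythroblasts and 0.00664% in fibroblasts.

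The other genes listed in a single table were counted by the same bounds. A lowest replicate of at least 0.9, which no replicate of the other cell type can reach, was found for 24 of the 323 genes listed in adult cells only (7.43%) and for 107 of the 873 listed in embryonic cells only (12.3%). The count for embryonic cells was 159 without embryonic replicate 1, and the count for adult cells was 34 without adult replicate 2. Leaving out a replicate can only raise such a count or leave it unchanged. The highest mean was 9.01 among genes listed in adult cells only and 624 among those listed in embryonic cells only, while the medians were 0.457 and 0.457. The counts differed when levels were taken as shares of each sample's summed level. The cutoff of 0.3 was on average 0.0114% of the adult and 0.00197% of the embryonic sum, so an adult gene needs a larger share to be listed. By shares, 252 of the 323 adult-only genes lay above any value the embryonic table allows, and 5 of the 873 embryonic-only genes lay above any value the adult table allows. The adult cutoff is itself a larger share than the limit of 0.00641% on any single embryonic value. The embryonic cutoff lies far below the adult limit of 0.0438%. Both counts therefore follow largely from the cutoffs and are no result about the genes. For most of the 873 genes the tables thus place the mean per cell lower in adult cells, without placing their share of the RNA lower.

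The share of changed genes also varied with level on the scale per cell. The classes were formed on the same values that were tested, and adding 1 before the logarithm limits the change that low genes can show. Of the 72 tested genes with a mean of 1 to 2 scaled FPKM, 26 fell and 0 rose, and of the 79 with a mean of 2 to 5, 52 fell and 5 rose. Of the 26 genes with a mean of 5 to 20, 12 fell and 3 rose, and of the 18 above 20, 5 fell and 2 rose. The median log2 fold changes per cell of these 4 classes were -0.72, -1.59, -1.05 and -0.63. The direction rested on the scaling here too, since by voom on reads the 72 lowest genes gave 25 higher and 0 lower, and the 4 medians were 0.74, -0.17, 0.78 and 1.27.

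Length separated the tested genes. Of the 26 tested genes with a recovered length under 200 bp, 6 rose and 4 fell on the scale per cell, and their median log2 fold change was 0.51. Among the 62 genes of 200 to 1000 bp, 2 were higher and 37 lower, with a median of -1.51. Among the 52 genes of 1000 to 2000 bp, 1 was higher and 32 lower, with a median of -1.23. Among the 41 genes of 2000 to 4000 bp, 1 was higher and 19 lower, with a median of -0.96, and of the 14 longer genes 3 were lower. By voom on reads the short genes gave 17 higher and 0 lower, with a median log2 fold change of 2.81. The other 4 classes, from shorter to longer, had medians of -0.09, 0.03, 0.59 and 1.15 by voom, so the longest class was above 0 as well. The 14 genes over 4000 bp gave 6 higher and 0 lower. Annotated genes this short are mostly small noncoding RNAs, but which ones these are was not assessed.

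**Figure D5:**
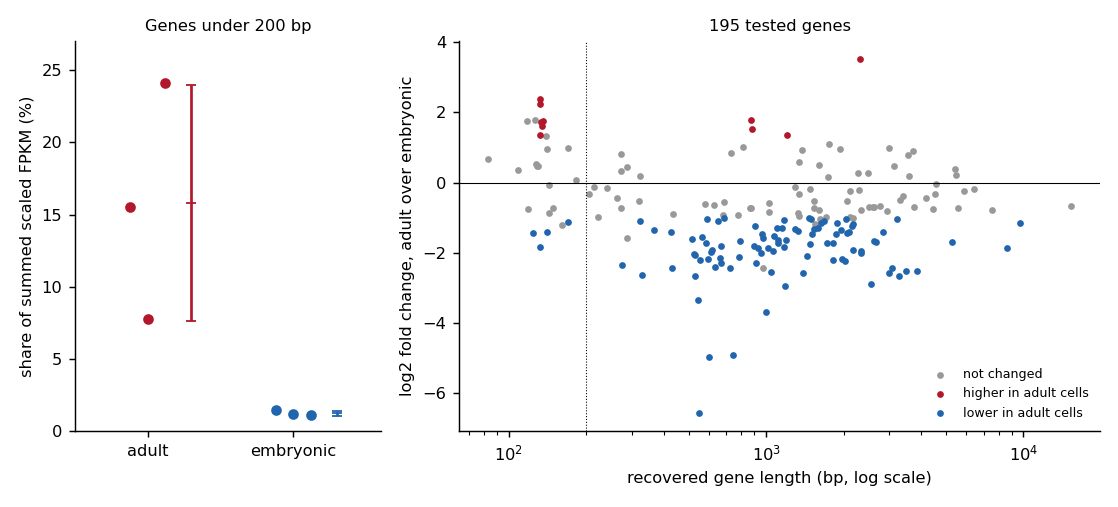
The left panel gives the share of the summed scaled FPKM (%) in genes under 200 bp for each of 3 adult and 3 embryonic libraries, with the mean and SD beside the points. The right panel plots the log2 fold change of the 195 tested genes, adult over embryonic on the log2(scaled FPKM + 1) scale, against recovered length on a log scale, with the dotted line at 200 bp. The adult libraries lie between 7.77% and 24.1%, the embryonic ones between 1.09% and 1.44%.

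Short genes also held a larger share of the signal in adult cells. Genes under 200 bp held 15.6%, 7.77% and 24.1% of the summed scaled FPKM in adult replicates 1 to 3, against 1.44%, 1.16% and 1.09% in embryonic replicates 1 to 3. The mean was 15.8% ± 8.17 in adult and 1.23% ± 0.188 in embryonic cells (SD, n = 3 each), with no overlap (two-sided exact permutation p = 0.1, adjusted p = 0.125). FPKM divides by length, and by reads the share was smaller, at 2.37% ± 1.11 in adult and 0.247% ± 0.0687 in embryonic cells (SD, n = 3 each), also without overlap. Much of the low embryonic share came from the dominant genes. Without the 10 highest genes of each sample, short genes held 20.9% ± 3.71 of the adult and 10.3% ± 3.92 of the embryonic sum (SD, n = 3 each), and the groups were still separate (exact permutation p = 0.1). Short genes could be among the 10 removed, and not equally in both groups. A gene of 132 bp ranked 7 by adult mean and 21 by embryonic mean. Their summed level per cell overlapped between the groups, at 320, 256 and 693 in adult and 265, 163 and 153 in embryonic replicates 1 to 3, with an exact permutation p of 0.2. Adult replicate 3, the library that stood apart, had the highest values, and the adult mean share was 11.7% without it.

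Adult replicate 3 differed from the other adult libraries along the same line. Over the 71 short genes of the adult table, replicate 3 was above replicates 1 and 2 by a median of 0.92 on the log2 scale, while the other genes lay at a median of -0.29. Of the 69 genes more than 4-fold above replicates 1 and 2, 18 were short, and of the 42 genes more than 4-fold below them, 7 were short, while short genes made up 8.83% of the adult table. The part of this library's difference in the results on short genes was not tested. Without it 111 genes changed, of which 13 were higher and 98 lower in adult cells, and the median log2 fold change was -0.97.

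Nearly all shared genes, changed or not, were also listed in the cultured cells. All of the 10 higher genes and 92 of the 95 lower genes were listed in HD3 erythroblasts, with median levels there of 21.8 and 101 scaled FPKM. In fibroblasts, 10 of the higher and 90 of the lower genes were listed. The 90 tested genes that did not pass were listed in similar numbers, 87 in HD3 erythroblasts and 88 in fibroblasts. Their median level in HD3 erythroblasts was 28.9 scaled FPKM. Of all 481 shared genes 97.3% were listed in HD3 erythroblasts and 96.7% in fibroblasts. Embryonic red blood cells were above HD3 erythroblasts in every sample for 6 of the 92 lower genes, none of the 10 higher ones and 2 of the 87 that did not pass. Adult red blood cells were above them in every sample for 2, 1 and 4 of these genes. The lower genes were called for high embryonic against adult values, so these counts are a description. The 323 genes listed in adult cells only were listed in HD3 erythroblasts in 90.4% of cases, with a median level there of 3.0, and the 873 listed in embryonic cells only in 97.4%, with a median of 8.03. Of the 24 adult-only genes with a lowest replicate of at least 0.9, 23 were listed in HD3 erythroblasts and 1 of these was above them in every sample. For the 107 such embryonic-only genes the numbers were 103 and 5. Levels set across cell types rest on tables that the authors scaled separately.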

How the data were processed

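Samples were grouped by their titles, and columns were matched to samples by the sample descriptions, with 0 per-sample columns left unmatched. The submitters' processing notes name STAR 2.7.2b, featureCounts and the build GRCg6a; the annotation release is not given in the sources used here. The authors deposited FPKM values, scaled to cell number per the name of each table, with a factor that is not given. The RefSeq table used here holds 25635 genes and an Ensembl ID for 0 of them, so no gene names were used.

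From the FPKM steps, whole reads and lengths were recovered for all 13889 genes (reads whole within 0.01), and tested on simulated data, where 99.8% to 100% of red blood cell values came back exactly. A recovered length can be too short where length and reads share a divisor. Differences between adult and embryonic cells were fitted in R 4.3.3 by limma 3.58.1 with the trend option on log2(scaled FPKM + 1), Benjamini-Hochberg adjustment over all 195 genes and no replicate block. In a test of this fit, 195 genes were drawn with the observed spread of each gene, pooled over both groups. Of the drawn changes, 79.8% of those of 1.5 and 96.1% of those of 3 (log2) were recovered. The wider spread of adult cells, the distance of adult replicate 3 and the excess of lower genes were not part of it. These rates are for all drawn genes together. Of the 195 real genes, 72 had a mean of 1 to 2, where adding 1 before the logarithm limits the change. Recovery among such low genes was not tested. Single values per sample were compared by two-sided exact permutation tests. Without gene names, the genes named were 1 tested gene with the largest increase and 1 with the largest decrease among changed genes without overlap, and the gene listed only in each table with the highest lowest replicate. Genes, rules and tests were chosen with earlier results of these data known.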

Additional observations from a re-analysis of the deposited data

How the results depend on the processing

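Scaling moved the split of higher and lower genes most. Centring each sample on the median gene gave 66 changed genes, 41 higher and 25 lower, with a median log2 fold change of 0.15. With equal sums over the tested genes these were 67, 60, 7 and 0.51, with equal sums over all listed genes (chosen after seeing the data) 67, 58, 9 and 0.46, and with voom on recovered reads 83, 61, 22 and 0.46, so the median was above 0 under all 4, although centring itself sets it near 0. A pseudocount of 0.1 gave 19 higher genes and a median of -1.69, and no filter gave a median of -0.24. With genes unlisted in 1 table set to 0.3 in its 3 samples, which takes away their spread, 171 of 263 genes changed, 24 of them higher and 147 lower, and the median was -1.14. Leaving out 1 replicate gave 94 to 115 changed, 5 to 19 higher and 88 to 98 lower genes and a median of -1.05 to -0.97. It gave 5 to 19 higher and 2 to 10 lower genes under all 5 scalings, a leave-one-out chosen after seeing the data. With a lowest replicate of at least 1.5 in place of 0.9, 10 adult-only and 41 embryonic-only genes passed, and by shares of the summed level (chosen after seeing the data) 252 and 5. The counts by shares follow largely from the cutoffs. Leaving out 1 replicate gave 26 to 34 adult-only and 108 to 159 embryonic-only genes, and can only raise these counts or leave them unchanged. Without the 10 highest genes, shared genes held 73.8% of the adult and 65.5% of the embryonic sum, and short genes 10.3% of the embryonic sum. Short genes under 300 bp held 31.6% and 4.18%, and by reads 2.37% and 0.247%. The causes of these shifts were not tested.

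Replicate numbers did not pair the samples: the deviations of same-numbered adult and embryonic samples correlated at -0.44, 0.21 and -0.23, and the replicate block gave 108 changed genes, of which 12 were higher and 96 lower, and a median of -1.02. ENSGALG00000011715 and ENSGALG00000031597 kept both sign and call in all 14 alternatives. Both had been chosen as the most extreme genes of the main fit on the same libraries, so this says little. Depth limits little here for genes of typical length, since listed genes had medians of 566 to 4188.5 reads. What remains unknown is the cell-number factor and everything below 0.3.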
